A study of Mus musculus with 6 samples.

Results

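The TGF-beta ligands, their receptors and the latent TGF-beta binding proteins were followed as 10 genes, taken by symbol from the deposited gene counts: Tgfb1, Tgfb2, Tgfb3, Tgfbr1, Tgfbr2, Tgfbr3, Ltbp1, Ltbp2, Ltbp3 and Ltbp4. All 10 were among the 53819 genes listed, and all 10 passed the filter on low counts, which left 17496 genes for testing. Bulk RNA-seq had been performed on healing flexor digitorum longus (FDL) tendons, which flex the digits of the hind paw, with n = 3 libraries per genotype and 1 tendon per library. DTRScxLin mice were Scx-Cre+; DTR F/+ and WT littermates were Scx-Cre-; DTR F/+, so both genotypes carried the diphtheria toxin receptor allele, which is expressed only after Cre recombination. Mice of 10 to 12 weeks of age, male and female, underwent tendon transection and repair, and all received 5 daily local injections of 100 ng diphtheria toxin (DT) from D14 to D18 post-surgery. The tendons were collected at D28 post-surgery, a time that the sample titles count from depletion instead. Scx-Cre is not inducible and labels every cell that has expressed Scx, a tendon transcription factor, at any age, so the cells targeted for depletion were not limited to 1 subpopulation.

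TGF-beta proteins are made as precursors whose propeptide stays bound to the growth factor and holds it inactive. The propeptide is disulphide-linked to a latent TGF-beta binding protein, which anchors the complex on fibrillin and fibronectin until integrins, proteases or thrombospondin release the ligand. Free ligand binds the type II receptor, which phosphorylates the type I receptor, and this in turn phosphorylates SMAD proteins that enter the nucleus. In tendon the pathway is known for inducing Scx and collagen genes, and in wounds for myofibroblast formation and scar matrix.

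Between 42744138 and 48854310 counts per library fell on genes. Tendon markers (11 genes, among them Scx, Tnmd and the fibrillar collagens) held 5.28% to 6.09% of counts in WT libraries and 5.99% to 8.09% in DTRScxLin libraries. Gene by gene, 8 were fitted higher and 3 lower (Chad, Comp and Fmod) in DTRScxLin tendons. Every DTRScxLin library was above the WT range for 4 of the 11 (Thbs4, Scx, Kera and Col3a1), beside 8.96% of all genes. For 1 of the 11, Chad, every DTRScxLin library was below it (log2 fold change -1.42 ± 0.71 (SE), edgeR adjusted p = 0.514), beside 7.85% of all genes. DESeq2 called 1 of the 11, Thbs4, beside 1.12% of all genes called higher (log2 fold change 0.65 ± 0.16 (SE), edgeR adjusted p = 0.307, DESeq2 adjusted p = 5.9e-05). Scx itself was at 2201, 2703 and 3063 normalized counts (TMM-scaled to the mean library size) in the WT libraries and 3475, 3406 and 3531 in the DTRScxLin libraries, each in order of replicate number, so that every DTRScxLin library was above the WT range (log2 fold change 0.39 ± 0.12 (SE), edgeR adjusted p = 0.371). The extent of depletion was not measured here. Skeletal muscle markers differed widely among libraries, at 3.00%, 2.71% and 2.18% in the WT libraries (in order of replicate number) and at 0.390%, 2.66% and 0.731% in the DTRScxLin libraries, and all 20 were fitted lower in DTRScxLin tendons, 0 of them past the adjusted threshold of 0.05. No gene of the muscle list was at 0 in every library. Keratinocyte markers were at 0.287%, 0.175% and 0.00155% in the WT libraries and at 0.00126%, 0.00165% and 0.0276% in the DTRScxLin libraries, again by replicate number. All 12 were fitted lower in DTRScxLin tendons, 0 of them past the adjusted threshold. Macrophage markers (0.378% to 0.463% against 0.409% to 0.448%) and endothelial markers (0.0704% to 0.0908% against 0.0687% to 0.0822%) varied less. The keratinocyte, macrophage and endothelial lists all overlapped between genotypes in their summed share. Of the 12 macrophage markers, Cd163, a scavenger receptor gene singled out after its values were seen, was below the WT range in every DTRScxLin library (log2 fold change -1.52 ± 0.31 (SE), edgeR adjusted p = 0.293, DESeq2 adjusted p = 2.7e-06), and the other 11 overlapped.

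No ligand, receptor or latent binding protein transcript passed the threshold in DTRScxLin tendons. With edgeR's quasi-likelihood test, 0 of the 10 genes were called, where 0% of all 17496 genes tested were, and with DESeq2 0 of the 10 were called, where 2.65% of the genes it tested were. At an unadjusted p under 0.05, 1 of the 10 was higher in DTRScxLin tendons (Tgfbr2), where 5.52% of all genes were, and 0 were lower, where 5.45% of all genes were. Tgfbr2 was also the single member whose DTRScxLin libraries all lay above all WT libraries, a pattern shown by 8.96% of all genes tested. No member had all DTRScxLin libraries below all WT libraries, which 7.85% of all genes had, so the groups separated in either direction for 1 of 10 members and for 16.8% of all genes. A total of 8 members were fitted higher and 2 lower, and their median log2 fold change was 0.13 beside 0.0082 over all genes tested. In a bulk library, fewer cells of a type and less RNA per cell cannot be told apart.

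**Figure D1:**
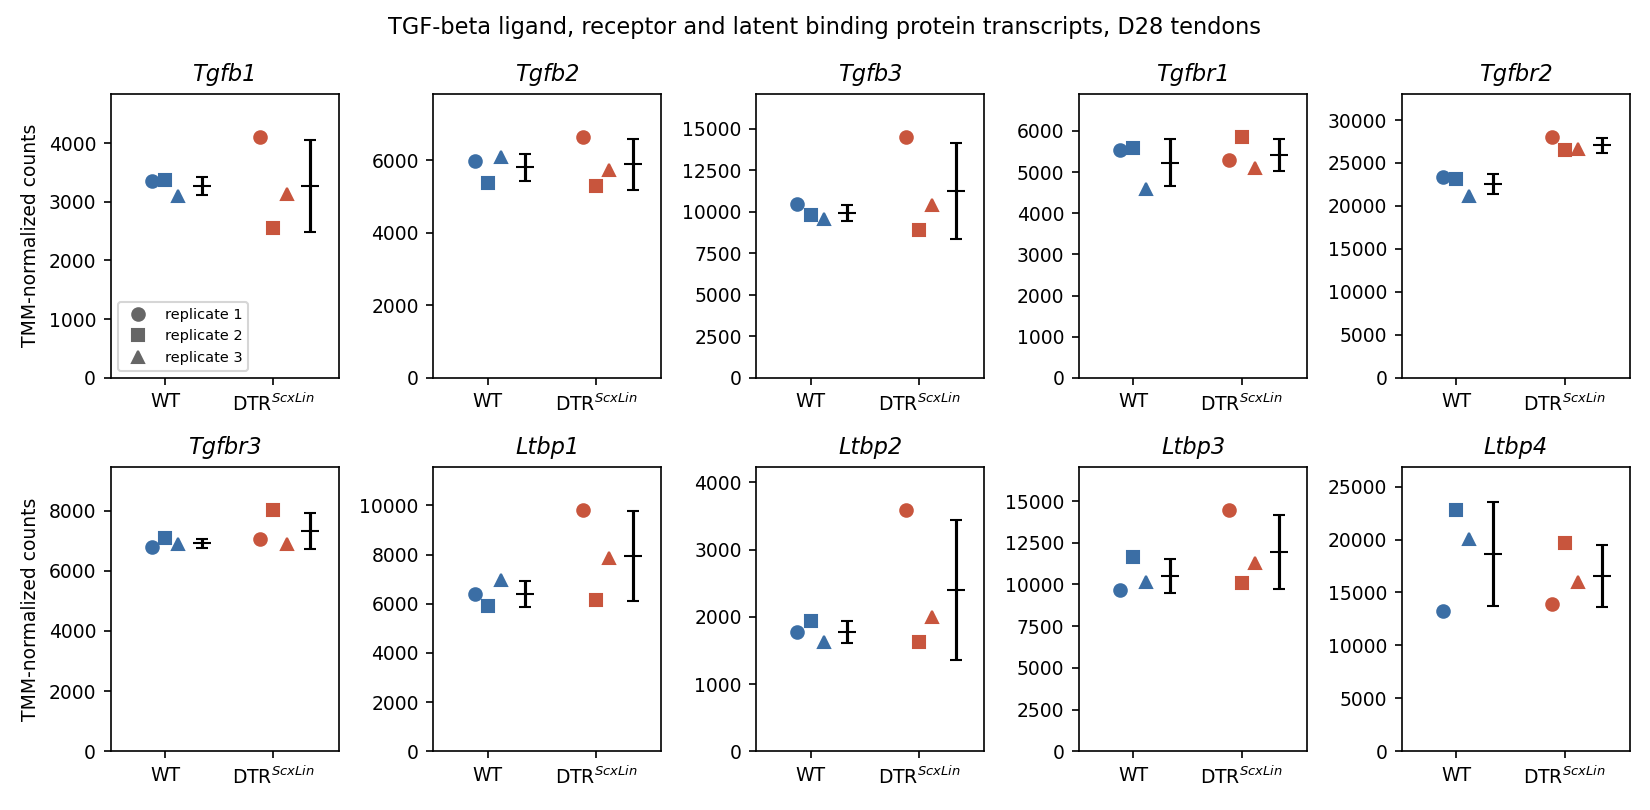
TMM-normalized counts (y axes, linear from 0) of the 10 genes in each library, WT in blue and DTRScxLin in red, with the marker shape giving the replicate number and black bars the mean ± SD (n = 3). In the Tgfbr2 panel the DTRScxLin libraries lie above the WT libraries, while the other 9 panels overlap.

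The ligand transcripts Tgfb1, Tgfb2 and Tgfb3 encode secreted growth factors that act on the same receptors. The 250 bases before their RefSeq transcription starts are shown for Tgfb1 and Tgfb2 (GRCm38.p6), together with those of Tgfbr2. In the edgeR fit of genotype alone, these are the ligands whose levels differed least between genotypes and the member with the smallest p. Capitals mark the letters of any of 5 motifs searched on both strands: the E-box bound by basic helix-loop-helix factors such as Scx (CANNTG), the SMAD box (CAGAC), the AP-1 site (TGANTCA), the GC box (GGGCGG) and the TATA box (TATAAA). In the windows shown, no match overlapped another.
Tgfb1: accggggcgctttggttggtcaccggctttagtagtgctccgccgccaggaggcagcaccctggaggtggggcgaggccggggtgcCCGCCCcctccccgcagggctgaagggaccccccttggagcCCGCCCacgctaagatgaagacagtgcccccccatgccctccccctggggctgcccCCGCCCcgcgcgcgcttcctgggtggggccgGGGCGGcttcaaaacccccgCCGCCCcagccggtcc
Tgfb2: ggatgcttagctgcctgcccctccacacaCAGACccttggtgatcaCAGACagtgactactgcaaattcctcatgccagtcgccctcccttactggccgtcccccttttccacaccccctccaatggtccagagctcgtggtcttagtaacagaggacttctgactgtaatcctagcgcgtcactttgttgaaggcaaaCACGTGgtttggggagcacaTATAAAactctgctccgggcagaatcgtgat
Tgfbr2: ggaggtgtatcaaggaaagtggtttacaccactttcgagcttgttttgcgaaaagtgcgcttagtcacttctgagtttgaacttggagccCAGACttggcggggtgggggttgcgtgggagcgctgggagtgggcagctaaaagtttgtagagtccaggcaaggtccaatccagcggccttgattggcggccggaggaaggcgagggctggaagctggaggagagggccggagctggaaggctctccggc
The Tgfb1 window (chr7:25686752-25687001, plus strand) had a GC content of 75.2%, beside a median of 52.4% over 32817 RefSeq promoters, and held 5 GC boxes and none of the other motifs. The Tgfb2 window (chr1:186705990-186706239, minus strand, 53.6% GC) held an E-box from 51 to 46 bases before the start, a TATA box from 31 to 26 bases before it and 2 SMAD boxes further upstream, and 1 annotated GENCODE exon overlapped it. The Tgfbr2 window (chr9:116175364-116175613, minus strand, 58.4% GC) held 1 SMAD box, from 160 to 156 bases before the start. Among all RefSeq promoters of this length, 66.2% held an E-box, 42.2% a SMAD box, 6.75% an AP-1 site, 32.7% a GC box and 12.4% a TATA box. RefSeq entries were matched for 8 of the 10 genes. Such matches describe the letters of the windows and were not tested as binding sites.

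Tgfb1 encodes the isoform best known for driving fibrosis. In order of replicate number, here and for the genes that follow, the WT libraries held 3350, 3366 and 3097 normalized counts of Tgfb1 and the DTRScxLin libraries 4107, 2554 and 3136. The highest and the lowest library were both DTRScxLin, so that all WT libraries lay inside the DTRScxLin range. WT tendons averaged 3271 ± 151 and DTRScxLin tendons 3266 ± 784 (SD, n = 3 each). The fitted log2 fold change was -0.0025 ± 0.16 (SE, 95% confidence interval -0.39 to 0.38, edgeR adjusted p = 0.997), an interval which runs from 0.765-fold to 1.30-fold. With the skeletal muscle markers as a covariate the log2 fold change of Tgfb1 was -0.36 (edgeR unadjusted p = 0.0353, adjusted p = 0.770). All 20 muscle markers were fitted lower in DTRScxLin tendons. Fits with this covariate, here and below, therefore cannot tell muscle content and genotype apart.

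Tgfb2, a second isoform, depends on betaglycan, the product of Tgfbr3, for efficient receptor binding. WT libraries held 5968, 5382 and 6079 normalized counts of it and DTRScxLin libraries 6645, 5281 and 5725. As for Tgfb1, DTRScxLin replicate 1 was the highest library and DTRScxLin replicate 2 the lowest. Its log2 fold change was 0.018 ± 0.11 (SE, 95% confidence interval -0.23 to 0.27, edgeR adjusted p = 0.963), the smallest standard error of the ligands.

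Tgfb3, the isoform associated with tendon development, was the most abundant ligand. WT libraries had 10458, 9815 and 9542 normalized counts and DTRScxLin libraries 14514, 8934 and 10389. A single library, DTRScxLin replicate 1, stood above the rest, and DTRScxLin replicate 2 was below every WT library. Means of 9938 ± 470 for WT and 11279 ± 2895 for DTRScxLin tendons (SD, n = 3 each) gave a log2 fold change of 0.18 ± 0.17 (SE, 95% confidence interval -0.22 to 0.59, edgeR adjusted p = 0.711). For Tgfb3 the log2 fold change was -0.045 without DTRScxLin replicate 1 and 0.33 without DTRScxLin replicate 2.

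The ligand mix was then compared as shares within each library, after division by exon length, which makes the comparison independent of library scaling. Tgfb3 made up 64.6%, 64.5% and 62.9% of ligand transcripts in the WT libraries and 68.6%, 65.1% and 65.6% in the DTRScxLin libraries. The Tgfb1 share was 13.9%, 14.8% and 13.7% in WT and 13.0%, 12.5% and 13.3% in DTRScxLin libraries. Thus every DTRScxLin library had a larger Tgfb3 share and a smaller Tgfb1 share than every WT library, although the differences in means were small (2.43 and -1.21 percentage points). The exact two-sided permutation test gave p = 0.1 for each, which is the smallest p that 3 against 3 libraries allow, and p = 0.25 after Benjamini-Hochberg adjustment over the 5 ratios tested. The Tgfb2 share overlapped, with 21.5%, 20.7% and 23.4% in WT and 18.4%, 22.5% and 21.1% in DTRScxLin libraries (exact permutation p = 0.5, adjusted p = 0.6). The 3 shares sum to 100% and are not independent of each other. Without WT replicate 3 the exact permutation p for the Tgfb3 share was 0.3. With 1 library left out, the difference in the Tgfb3 share ran from 1.33 (without DTRScxLin replicate 1) to 3.11 percentage points.

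**Figure D2:**
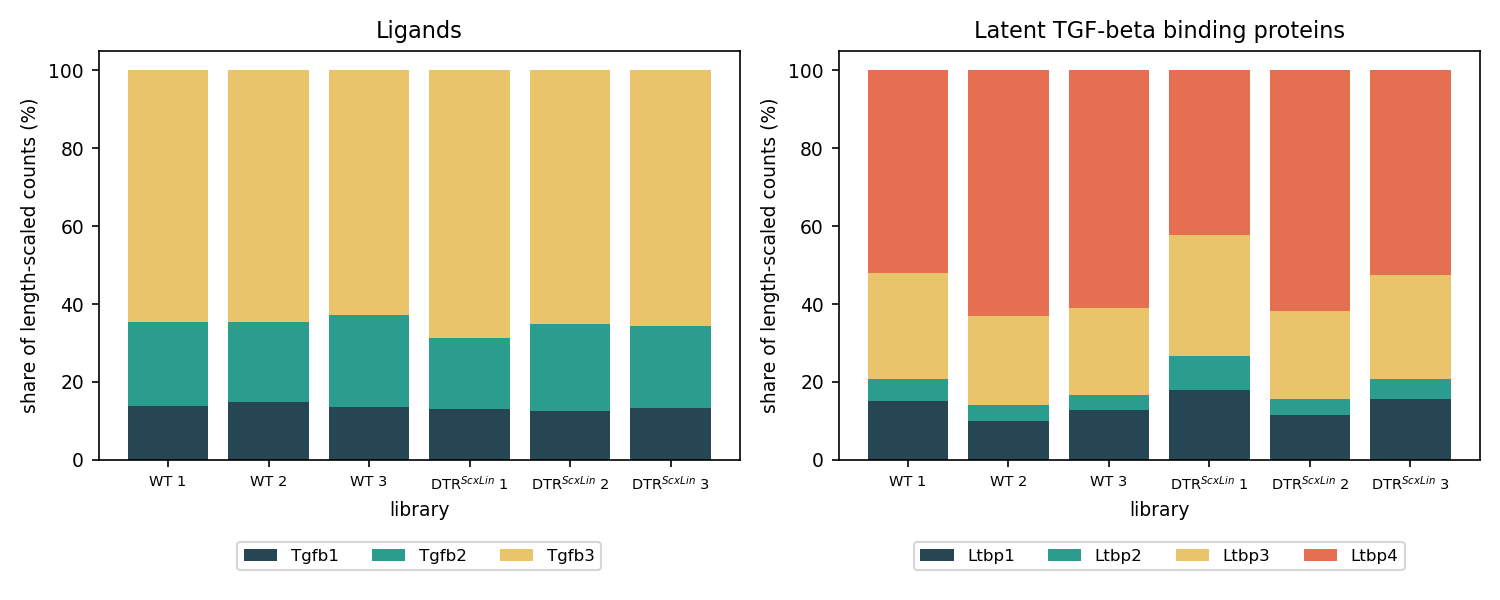
Share of length-scaled counts in percent (y axes) held by each ligand transcript (left) and by each latent binding protein transcript (right) in each library (x axes), stacked to 100%. Tgfb3 holds between 62.9% and 68.6% of the ligand transcripts, and Ltbp4 between 42.3% and 63.0% of the latent binding protein transcripts.

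Of the receptors, only Tgfbr2 did not overlap between the genotypes, which also held for 16.8% of all genes tested. Tgfbr2 encodes the type II receptor, the constitutively active kinase that binds the ligand before the type I receptor joins. WT libraries held 23325, 23126 and 21165 normalized counts of Tgfbr2 and DTRScxLin libraries 28038, 26484 and 26610. The lowest DTRScxLin library was above the highest WT library, and the coefficient of variation was 5.30% in WT and 3.19% in DTRScxLin tendons. Means of 22539 ± 1194 for WT and 27044 ± 863 for DTRScxLin tendons (SD, n = 3 each) gave a fold change of 1.20 (95% confidence interval 1.02 to 1.42) and a log2 fold change of 0.26 ± 0.10 (SE). The unadjusted p was 0.0345, the edgeR adjusted p 0.439 and the DESeq2 adjusted p 0.172, and its unadjusted p ranked 1375 among the 17496 genes. Across 16 alternative settings the log2 fold change of Tgfbr2 lay between 0.22 and 0.29, and it was 0.24 with the skeletal muscle markers as a covariate. The unadjusted p of Tgfbr2 in edgeR was 0.0513 to 0.0989 with any 1 library left out, 0.0877 with the replicate block and 0.130 with the muscle covariate.

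Tgfbr1, the type I receptor kinase that phosphorylates SMAD2 and SMAD3, had 5536, 5578 and 4583 normalized counts in the WT libraries and 5286, 5857 and 5108 in the DTRScxLin libraries. DTRScxLin replicate 2 was the highest library, the other DTRScxLin libraries lay within the WT range, and the log2 fold change was 0.050 ± 0.11 (SE, 95% confidence interval -0.19 to 0.29, edgeR adjusted p = 0.888). Tgfbr3, encoding the co-receptor betaglycan, had 6772, 7076 and 6896 normalized counts in the WT libraries and 7062, 8005 and 6902 in the DTRScxLin libraries. The WT libraries had a coefficient of variation of 2.21%, DTRScxLin replicate 2 was the highest library and the others overlapped. For Tgfbr3 the log2 fold change was 0.083 ± 0.089 (SE, 95% confidence interval -0.12 to 0.29, edgeR adjusted p = 0.749). Its value was 0.016 without DTRScxLin replicate 2, 0.13 without DTRScxLin replicate 3 and 0.19 with the muscle covariate.

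The balance of the signalling receptors was compared as the log2 ratio of Tgfbr1 to Tgfbr2 counts within a library. WT libraries had ratios of -2.07, -2.05 and -2.21, and DTRScxLin libraries -2.41, -2.18 and -2.38. The ratio was lower in DTRScxLin tendons on average by a log2 difference of -0.21, but WT replicate 3 lay below DTRScxLin replicate 2, and the exact permutation p was 0.2 (adjusted p = 0.333).

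Latent TGF-beta binding proteins differ in their partners: LTBP1 and LTBP3 carry all TGF-beta isoforms, LTBP4 binds TGF-beta1 only weakly, and LTBP2 does not bind latent TGF-beta but associates with fibrillin microfibrils. Ltbp1 had 6403, 5896 and 6952 normalized counts in the WT libraries and 9798, 6145 and 7856 in the DTRScxLin libraries. DTRScxLin replicates 1 and 3 were above every WT library and DTRScxLin replicate 2 was inside the WT range. WT tendons averaged 6417 ± 529 and DTRScxLin tendons 7933 ± 1828 (SD, n = 3 each), with a log2 fold change of 0.31 ± 0.17 (SE, 95% confidence interval -0.085 to 0.70, edgeR adjusted p = 0.516). It was 0.12 without DTRScxLin replicate 1 and 0.46 without DTRScxLin replicate 2.

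Ltbp2 had the largest fitted difference and the widest interval of the 10 genes. WT libraries held 1772, 1933 and 1619 normalized counts of Ltbp2 and DTRScxLin libraries 3584, 1628 and 1995. DTRScxLin replicate 1 was far above all other libraries, DTRScxLin replicate 3 just above the WT range and DTRScxLin replicate 2 within it. Its log2 fold change was 0.44 ± 0.30 (SE, 95% confidence interval -0.31 to 1.19, edgeR adjusted p = 0.614). Without DTRScxLin replicate 1 it was 0.025, and without DTRScxLin replicate 2 it was 0.65.

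Ltbp3 had 9698, 11628 and 10168 normalized counts in the WT libraries and 14443, 10090 and 11311 in the DTRScxLin libraries. Only DTRScxLin replicate 1 was outside the WT range. The log2 fold change of Ltbp3 was 0.19 ± 0.15 (SE, 95% confidence interval -0.16 to 0.53, edgeR adjusted p = 0.652), and 0.023 without DTRScxLin replicate 1 and 0.30 without DTRScxLin replicate 2.

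Ltbp4 was the member with the largest spread among WT libraries, at 13209, 22757 and 20017 normalized counts, beside 13935, 19714 and 15952 in the DTRScxLin libraries. WT replicate 1 and DTRScxLin replicate 1 were the lowest libraries of their genotypes, and all DTRScxLin libraries lay inside the WT range. Its log2 fold change was -0.17 ± 0.22 (SE, 95% confidence interval -0.69 to 0.35, edgeR adjusted p = 0.796). With 1 library left out it ran from -0.37 (without WT replicate 1) to -0.0064 (without WT replicate 2), and it was -0.32 without DTRScxLin replicate 2 and -0.071 without DTRScxLin replicate 1. Ltbp4 accounted for 52.0%, 63.0% and 61.1% of latent binding protein transcripts in WT and 42.3%, 61.8% and 52.6% in DTRScxLin libraries after division by exon length. The corresponding share of Ltbp2 was 5.51%, 4.22% and 3.90% in WT and 8.58%, 4.03% and 5.19% in DTRScxLin libraries, which overlapped (exact permutation p = 0.6, adjusted p = 0.6).

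**Figure D3:**
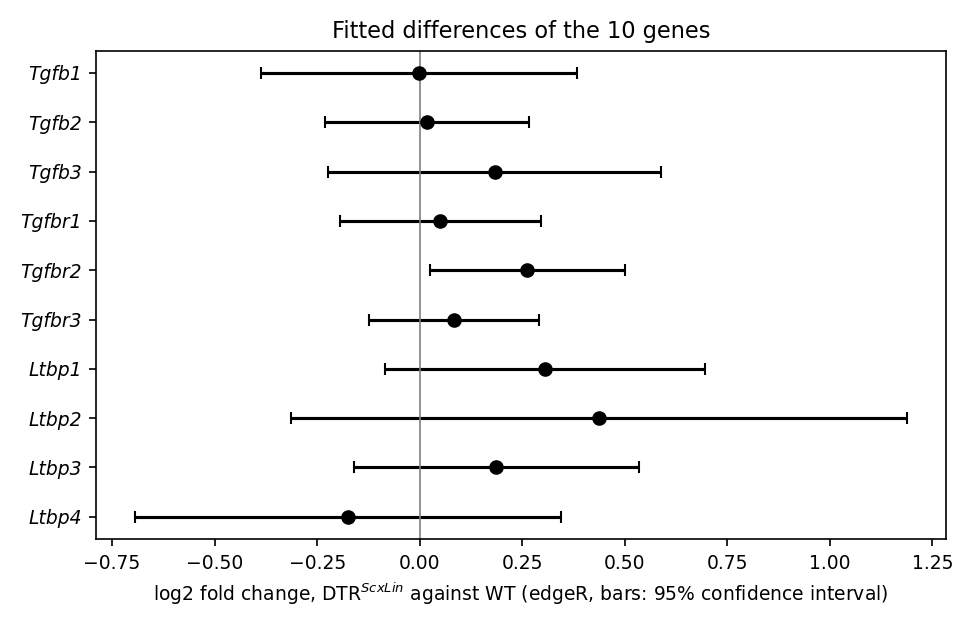
Log2 fold change of each gene in DTRScxLin against WT tendons (x axis) as fitted by edgeR, with bars for the 95% confidence interval and a vertical line at 0. The interval of Tgfbr2 (0.025 to 0.50) lies above 0, and the intervals of the other 9 genes include 0.

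The levels of the 10 transcripts were compared with each other per kilobase of annotated exon, over all 6 libraries. Tgfb3 (3136 ± 590 normalized counts per kb, SD, n = 6), Tgfbr2 (3028 ± 322) and Ltbp4 (2723 ± 588) formed the top of the order. Neighbours in this group were not separated, as Tgfb3 exceeded Tgfbr2 in 4 of 6 libraries and Tgfbr2 exceeded Ltbp4 in 4 of 6. Ltbp4 exceeded the next gene, Ltbp3 (1238 ± 193 per kb), in 6 of 6 libraries. Tgfbr3 (1088 ± 68.6 per kb) and Tgfb2 (1010 ± 86.6 per kb) followed, each lower than its predecessor in 5 of 6 libraries. Tgfb2 exceeded Tgfbr1 (815 ± 68.1 per kb) in 6 of 6 libraries, and Tgfbr1 exceeded Ltbp1 (671 ± 137 per kb) in 5 of 6. Ltbp1 and Tgfb1 (648 ± 100 per kb) were not separated, with Ltbp1 higher in 4 of 6 libraries, and both were above Ltbp2 (255 ± 91.5 per kb), Tgfb1 in 6 of 6. Exon lengths were the union of annotated exons in GENCODE, so a gene with unused long exons would be placed too low.

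Libraries of the same genotype differed from each other, and a difference in this spread between the genotypes was not tested. DTRScxLin replicate 1 was the highest library for 7 of the 10 genes (Tgfb1, Tgfb2, Tgfb3, Tgfbr2, Ltbp1, Ltbp2 and Ltbp3), whereas it was the highest for 22.9% of all genes tested. Its median departure from the WT mean over the 10 genes was 0.32 on the log2 scale, and those of the other 5 libraries lay between -0.056 and 0.040. The coefficient of variation ranged from 2.21% to 26.3% in WT and from 3.19% to 43.3% in DTRScxLin tendons, and it was larger in DTRScxLin tendons for 7 of the 10 genes and for 58.7% of all genes. Counting error alone would give 0.635% to 2.19%. DTRScxLin replicate 1 also had the lowest share of skeletal muscle markers (0.390%) and the highest summed share of tendon markers (8.09%). Among the tendon markers it was nevertheless the lowest library for Chad and Fmod. With the muscle markers as a covariate the median log2 fold change of the 10 genes was -0.078, and without DTRScxLin replicate 1 it was 0.024. The covariate fit cannot tell muscle content and genotype apart. Beyond these fits, the part of these markers in the members' differences was not tested.

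**Figure D4:**
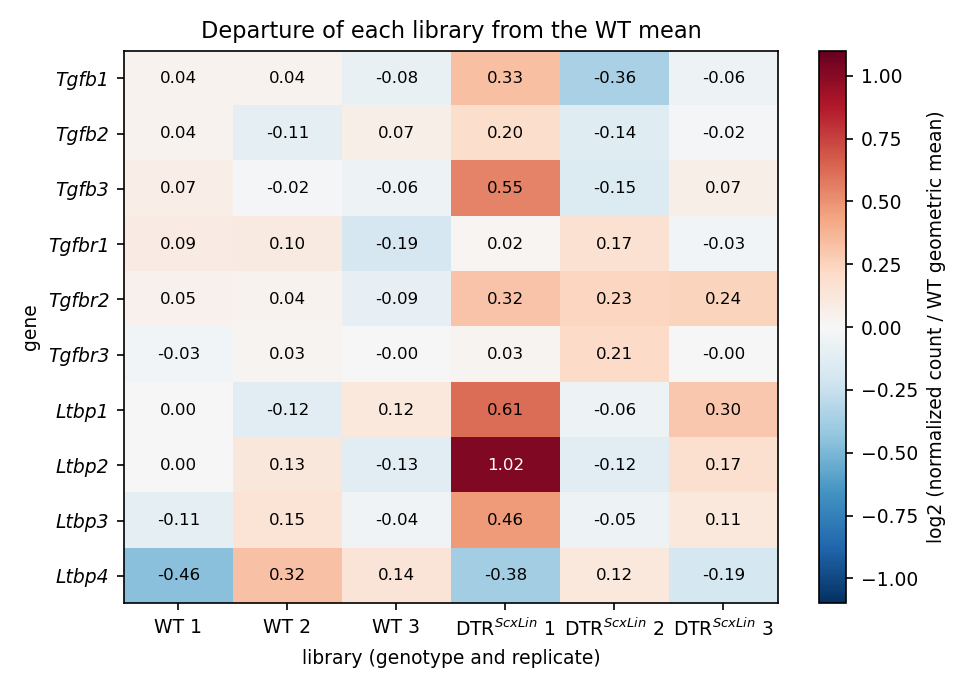
Log2 ratio of each library's normalized count to the geometric mean of the WT libraries (colour and printed value) for each gene (rows) in each library (columns). The column of DTRScxLin replicate 1 is positive for 9 of 10 genes, with the highest value for Ltbp2 (1.02), and the row of Tgfbr2 is positive in the 3 DTRScxLin libraries.

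Around these genes, 5 lists of pathway genes were examined, ordered from the cell surface to the response. No gene of any list was called by edgeR, and when DTRScxLin replicate 2 was left out 9 of the 91 genes of the family and the lists were, beside 544 genes or 3.02% of all genes in that fit. Accessory receptors and anchors (10 genes tested) had 8 genes fitted higher and 2 lower, with a median log2 fold change of 0.063, 1 gene higher at an unadjusted p under 0.05, beside 5.52% of all genes, and 0 called by DESeq2, beside 2.65% of all genes. Cd109, a membrane co-receptor that restrains TGF-beta signalling, had 8483, 10774 and 11970 normalized counts in the WT libraries and 12415, 14276 and 12803 in the DTRScxLin libraries, which did not overlap (log2 fold change 0.34 ± 0.14 (SE), edgeR adjusted p = 0.452). Acvr1, a type I receptor best known for BMP and activin signals, and Nrros, which anchors latent TGF-beta1 on myeloid cells, had log2 fold changes of 0.15 and -0.12 (edgeR adjusted p = 0.590 and 0.605). The SMAD signal transduction list (18 genes tested) was balanced, with 9 genes fitted higher and 9 lower, a median log2 fold change of 0.018, 1 gene higher at an unadjusted p under 0.05 and 0 called by DESeq2, beside the same 5.52% and 2.65% of all genes. Ldlrad4, which limits SMAD phosphorylation, had a log2 fold change of 0.24 ± 0.10 (SE, edgeR adjusted p = 0.452), and the ubiquitin ligase gene Nedd4l and the SMAD anchor gene Zfyve9 had log2 fold changes of -0.37 and -0.23 (edgeR adjusted p = 0.466 and 0.512).

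In the list of genes that process and activate latent complexes (18 genes tested), 16 were fitted higher and 2 lower, the median log2 fold change was 0.21, and 3 genes were higher at an unadjusted p under 0.05, beside 5.52% of all genes. DESeq2 called 2 of the 18 as higher, beside 1.12% of all genes. Adamts1, a secreted protease, had 1993, 1998 and 1786 normalized counts in the WT libraries and 2890, 2641 and 2521 in the DTRScxLin libraries. Every DTRScxLin library was above every WT library, and the log2 fold change was 0.48 ± 0.090 (SE, edgeR adjusted p = 0.268, DESeq2 adjusted p = 0.0080). Thbs1, encoding thrombospondin 1, which can release TGF-beta from its propeptide, had 22719, 22616 and 22675 normalized counts in the WT libraries and 43190, 30447 and 42225 in the DTRScxLin libraries. The WT libraries were nearly equal and all lay below the DTRScxLin libraries (log2 fold change 0.77 ± 0.15 (SE), edgeR adjusted p = 0.274, DESeq2 adjusted p = 0.00012). Itgav, the alpha-V subunit of the integrins that pull ligand free, also did not overlap and had a log2 fold change of 0.32 ± 0.092 (SE, edgeR adjusted p = 0.347, DESeq2 adjusted p = 0.129).

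Matrix carriers of latent complexes (12 genes tested) had 9 genes fitted higher and 3 lower and a median log2 fold change of 0.24. Of these, 2 were higher at an unadjusted p under 0.05, beside 5.52% of all genes, and 2 were called higher by DESeq2, beside 1.12% of all genes. Fbn1, the fibrillin that holds latent binding proteins in microfibrils, had 44357, 53796 and 47318 normalized counts in the WT libraries and 77760, 83245 and 81698 in the DTRScxLin libraries, which did not overlap (log2 fold change 0.74 ± 0.13 (SE), edgeR adjusted p = 0.260, DESeq2 adjusted p = 4.6e-07). Aspn, encoding asporin, a small proteoglycan that binds TGF-beta1, had a log2 fold change of 0.64 ± 0.18 (SE, edgeR adjusted p = 0.346, DESeq2 adjusted p = 0.0060). Fbn2 overlapped between genotypes, with 3737, 3214 and 2800 normalized counts in the WT libraries and 7719, 2982 and 7068 in the DTRScxLin libraries, of which replicate 2 was within the WT range. Its log2 fold change was 0.87 ± 0.38 (SE, edgeR adjusted p = 0.477), and -0.030 with the muscle markers as a covariate.

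The list of TGF-beta responsive genes (30 tested, Ltbp2 among them) had 23 genes fitted higher and 7 lower, with a median log2 fold change of 0.32. At an unadjusted p under 0.05, 10 were higher, and the same number lay above all WT libraries, beside 5.52% and 8.96% of all genes. DESeq2 called 6 of the 30 as higher, beside 1.12% of all genes. Of this list, Thbs1, Fn1, Skil, Ldlrad4, Smad7 and Pmepa1 were also counted in the lists above, so the counts of the lists are not independent. Lox, the enzyme that starts collagen crosslinking, had 60069, 58141 and 60603 normalized counts in the WT libraries and 104633, 86095 and 91920 in the DTRScxLin libraries (log2 fold change 0.66 ± 0.13 (SE), edgeR adjusted p = 0.274, DESeq2 adjusted p = 5.8e-06). Cdkn2b, a cell cycle inhibitor gene induced by TGF-beta, had 210, 202 and 221 normalized counts in the WT libraries and 700, 359 and 441 in the DTRScxLin libraries (log2 fold change 1.24 ± 0.25 (SE), edgeR adjusted p = 0.274, DESeq2 adjusted p = 0.00034). Both genes were above the WT range in every DTRScxLin library. The 7 genes fitted lower were Cnn1, Acta2, Tagln, Comp, Pmepa1, Smad7 and Igfbp3. Their log2 fold changes ran from -0.56 (Cnn1) to -0.022 (Igfbp3), with -0.37 for Acta2, and all 7 overlapped between genotypes. The median of this list was 0.084 without DTRScxLin replicate 1 and -0.010 with the muscle markers as a covariate. The covariate fit cannot tell muscle content and genotype apart. Lox, Thbs1, Fbn1, Aspn, Adamts1 and other genes of these lists are ones the study itself reported from these libraries, so their counts are not independent evidence of a direction.

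**Figure D5:**
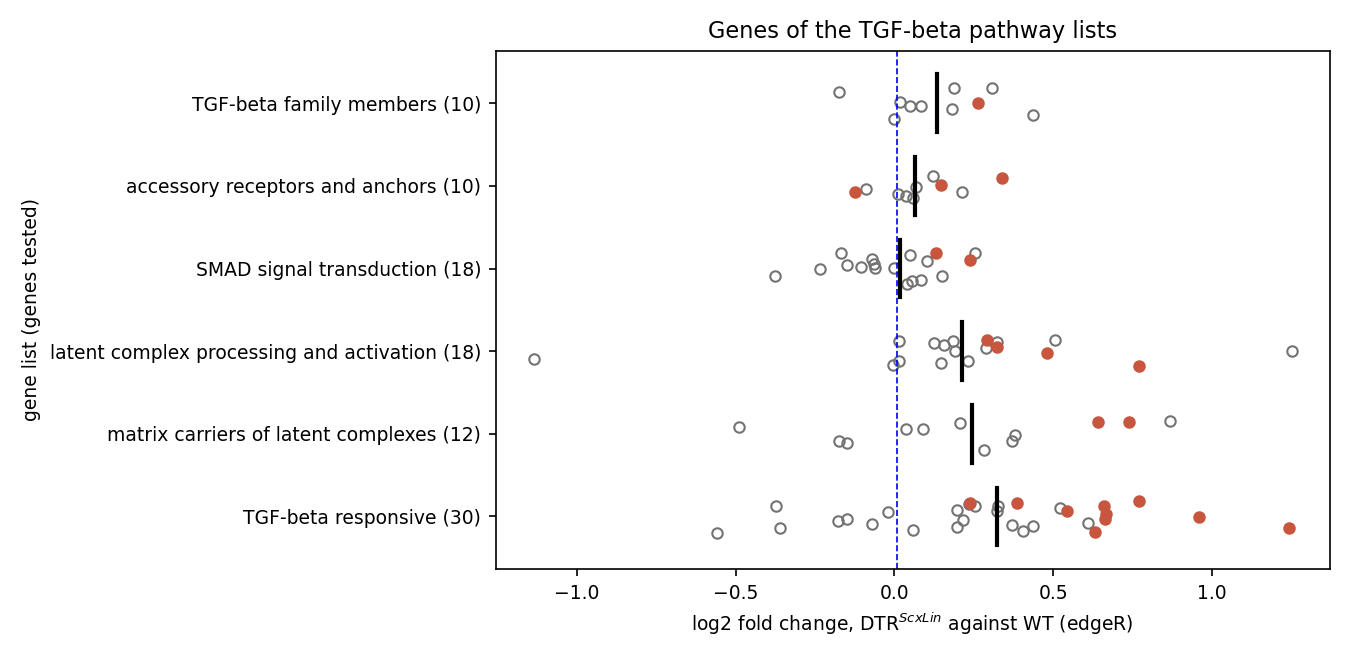
Log2 fold change in DTRScxLin against WT tendons (x axis, edgeR) of every tested gene in the 10-gene family and the 5 pathway lists (rows, number of genes tested in parentheses), with filled circles where the groups do not overlap, black bars for the list median and a dashed line at the median of all genes. The list medians run from 0.018 for SMAD signal transduction to 0.32 for TGF-beta responsive genes, and 0 genes passed edgeR's adjusted threshold.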

How the data were processed

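FDL tendon RNA was sequenced from 3 DTRScxLin and 3 WT mice. The authors counted reads per gene with featureCounts and deposited raw whole-number counts, and also a normalized signal table, the same counts divided by a size factor per library. The aligner, genome build, annotation and strand setting are not given in the sources used here. Replicates of a genotype were compared by a chi-square test and none was a duplicate. The main test used edgeR 4.0.16 in R 4.3.3 (filterByExpr by genotype, TMM, robust quasi-likelihood test, genotype as the only term), with Benjamini-Hochberg adjustment over all 17496 tested genes and a threshold of 0.05. Standard errors (SE) were derived from the log2 fold change and its F statistic. Normalized counts are TMM-normalized at the mean library size. Shares and ratios were compared by exact two-sided permutation tests. Alternatives used DESeq2 1.42.0, limma 3.58.1, other scalings and filters, a replicate block, muscle and Xist covariates, and each library left out. The test was tested on simulated data. Named genes were the 10 members, the 3 genes of smallest unadjusted p in each list (none being called), and the 2 nearest neighbours of each ligand. The 7 TGF-beta responsive genes fitted lower and single marker genes were named in addition. The members and lists were chosen with earlier results of these data known. Promoters are from RefSeq (GRCm38.p6) and exon lengths from GENCODE, where 92.8% of listed symbols were found. Marker lists not described in the report (lymphoid, mural, adipocyte, Schwann, cartilage and bone, erythroid) are given with the other observations.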

Additional observations from a re-analysis of the deposited data

How the results depend on the processing

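The 3 tendons of each genotype set the precision. The 10 genes gave 0 calls in every setting. Over all genes, edgeR's count of 0 became 466 with DESeq2, 83 with no filter on low counts, 1 with the replicate block and 0 to 544 with 1 library left out (544 without DTRScxLin replicate 2, 0 otherwise). For the pathway lists it became 9 with DESeq2, 4 with no filter and 0 to 9 with 1 library left out (9 without DTRScxLin replicate 2). The shares of all genes called were 2.65% with DESeq2, 0.27% with no filter and 3.02% without DTRScxLin replicate 2. The number of family genes without overlap was 1, and 1 to 3 with 1 library left out (3 without DTRScxLin replicate 2, 2 without WT replicate 1 or 2 or DTRScxLin replicate 3), a count chosen after seeing the data. With 1 library left out, 22.3% to 33.9% of all genes did not overlap (33.7% without DTRScxLin replicate 2), beside 16.8% with all libraries, so these counts cannot be compared with the 1. The count at an unadjusted p under 0.05, also chosen after seeing the data, was 1 (Tgfbr2). It was 0 with the replicate block or without any library other than DTRScxLin replicate 2, and 2 with the Xist covariate. Where it stayed at 1, the gene was not always Tgfbr2. Without DTRScxLin replicate 2 it was Ltbp1 (log2 fold change 0.46, edgeR unadjusted p = 0.0080). With the muscle covariate it was Tgfb1 (log2 fold change -0.36, edgeR unadjusted p = 0.0353). Tgfbr2 and Tgfbr3 kept their direction in all 16 settings. The direction of Tgfb1 turned with upper quartile scaling (0.0041), no filter (0.00053) and the Xist covariate (0.058). With the muscle covariate Tgfb1 kept its sign, but its log2 fold change was -0.36 (edgeR adjusted p = 0.770), beside -0.0025 with genotype as the only term. With this covariate, log2 fold changes turned for Tgfb2 (-0.15), Tgfb3 (-0.17), Ltbp1 (-0.078), Ltbp2 (-0.16), Ltbp3 (-0.078) and Ltbp4 (0.036). With 1 library left out they ran from -0.21 to 0.15 for Tgfb1, from -0.082 to 0.092 for Tgfb2, from -0.045 to 0.33 for Tgfb3 and from -0.039 to 0.099 for Tgfbr1. The causes were not tested. The 5 ratios kept the sign of their difference throughout, though not its size. For the Ltbp2 and Tgfb2 shares only DTRScxLin replicate 1 (8.58% and 18.4%) lay outside the WT range. Same-numbered libraries did not deviate together (correlations -0.25, -0.21 and -0.73). With 3 libraries per genotype these correlations cannot decide whether the numbers pair the tendons, and the labels do not say. With the replicate block the log2 fold change of Tgfbr2 was 0.26.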

Other observations

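The genes whose levels followed each ligand most closely across the 6 libraries were found by the root mean square (RMS) difference of centred log2 CPM, among 14408 genes whose mean normalized count reached 50. For Tgfb1 these were Zcchc14 (RMS difference 0.0328) and Rnf157 (0.0329), where the median over all genes compared was 0.263. For Tgfb2 they were Atp6v0d1, a subunit of the vacuolar proton pump (0.0263), and Psme3ip1 (0.0299), beside a median of 0.193. For Tgfb3 they were Sh3pxd2a, which encodes the podosome scaffold TKS5 (0.0242), and Spata13 (0.0415), beside a median of 0.272. Sh3pxd2a had 18257, 17264 and 16721 normalized counts in the WT libraries and 24280, 15504 and 17877 in the DTRScxLin libraries, so that DTRScxLin replicate 1 was the highest library and DTRScxLin replicate 2 the lowest, as for Tgfb3. These neighbours were picked as the closest of the 14408 genes, so they lie below the median by selection. Shared regulation with the ligands was not tested. None of these 6 genes passed edgeR's threshold.

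The remaining marker lists held small shares of the counts. Lymphoid markers ranged from 0.00929% to 0.0130% in WT and from 0.0104% to 0.0137% in DTRScxLin libraries, mural and smooth muscle markers from 0.163% to 0.209% and from 0.139% to 0.169%, and cartilage and bone markers from 0.0200% to 0.0271% and from 0.0157% to 0.0296%. Adipocyte markers ranged from 0.0112% to 0.0206% in WT and from 0.00825% to 0.0143% in DTRScxLin libraries, and Schwann cell markers from 0.0613% to 0.113% and from 0.0444% to 0.0779%. These sums follow the most abundant genes. Gene by gene, 6 of the 7 adipocyte markers, all but Fabp4, had every DTRScxLin library below every WT library, beside 7.85% of all genes. DESeq2 called 5 of them, beside 2.65% of all genes in either direction, while edgeR called 0. An example singled out after its values were seen is Adipoq, which encodes adiponectin, at 96.4, 187 and 273 normalized counts in the WT libraries and 17.5, 62.2 and 26.7 in the DTRScxLin libraries (log2 fold change -2.38 ± 0.57 (SE), edgeR adjusted p = 0.307, DESeq2 adjusted p = 0.00029). Erythroid markers did not overlap in their summed share, with 0.00831% to 0.0186% in WT and 0.00457% to 0.00757% in DTRScxLin libraries. All 4 erythroid genes tested were below the WT range in every DTRScxLin library, beside 7.85% of all genes. DESeq2 called 3 of the 4, beside 2.65% of all genes in either direction, and edgeR called 0. The part of these cell types in the members' values was not tested.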
